A study of Macaca mulatta with 2 samples.

Results

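The TRAV19+ cytotoxic cells were a subset of the circulating CD4+CD8+ double-positive (DP) T cells of 1 untreated rhesus monkey aged 6 years. They were chosen by their own transcripts. A cell had to carry at least 1 unique molecular identifier (UMI, 1 counted RNA molecule) of TRAV19 and at least 3 UMIs of GZMB, with no UMI of TRAV12-2 or TRBV7-3. Of 7601 cells that passed the filters, 495 met this rule, or 6.51% (exact 95% binomial interval 5.97% to 7.09%). They were compared with the 2302 cells that had at least 3 GZMB UMIs and no TRAV19 UMI, called the other GZMB+ cells here.

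The study asked how heterogeneous circulating DP T cells are. Blood cells were taken with CD4 microbeads and then with CD8 microbeads, so the cells had been selected for both proteins. Single-cell 5′ RNA and antibody tags against CD4 and CD8 were counted in the same cells, as an RNA library and a tag library. The cells were not sorted further, came from a single animal, and were read as 1 sample, so no test between samples could be made. The 7923 barcodes held 32297887 gene UMIs, and the 7601 cells that passed had a median of 3636. Intervals given here cover counting error only. They show how precisely these cells were counted, not how another animal would vary.

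Each T cell carries a receptor of an alpha and a beta chain, and each chain is built from 1 of many variable (V) segments joined to further segments during development in the thymus. TRAV segments belong to the alpha chain and TRBV segments to the beta chain. The beta locus is usually productive on only one of its copies, whereas both alpha copies can rearrange, so a T cell can hold a pair of alpha transcripts. Cytotoxic T cells store granzymes, perforin and granulysin in granules and release them onto a target cell. GZMB, granzyme B, is one of the proteases of these granules.

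Reference sequences of 3 V segments that recur in these cells are given because they show how unlike one another the segments are, and so how far a read of one could be counted for another. They were read from the RefSeq annotation of the Mmul_10 genome, which is also the build of the deposited counts. RefSeq does not carry the same gene names, so each segment was found by RefSeq's description (for example, T cell receptor alpha variable 19-like), not by a shared identifier. The first 200 coding bases are shown 5′ to 3′, with the leader exon in capitals and the start of the V exon in lower case. The bases shown lie in Mmul_10 at chr7:83898963-83899017 and chr7:83899220-83899364 for TRAV19, at chr7:83849162-83849213 and chr7:83849428-83849575 for TRAV12-3, and at chr3:168831251-168831299 and chr3:168831403-168831553 for TRBV11-1, all on the plus strand. They are the leader exon and the start of the V exon, and the remaining coding bases are not shown.
TRAV19: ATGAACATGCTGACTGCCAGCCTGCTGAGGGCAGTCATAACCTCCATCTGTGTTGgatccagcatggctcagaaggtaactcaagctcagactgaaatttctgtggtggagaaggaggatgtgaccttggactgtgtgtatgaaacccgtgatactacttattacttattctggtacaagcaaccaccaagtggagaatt
TRAV12-3: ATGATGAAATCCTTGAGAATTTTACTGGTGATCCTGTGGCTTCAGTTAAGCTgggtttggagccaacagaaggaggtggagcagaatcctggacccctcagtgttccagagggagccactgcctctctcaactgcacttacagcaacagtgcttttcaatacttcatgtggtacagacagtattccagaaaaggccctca
TRBV11-1: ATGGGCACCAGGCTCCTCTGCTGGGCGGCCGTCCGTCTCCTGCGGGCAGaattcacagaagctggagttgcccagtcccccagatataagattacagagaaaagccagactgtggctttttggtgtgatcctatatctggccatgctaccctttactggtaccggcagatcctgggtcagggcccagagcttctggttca

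Over the first 300 coding bases, TRAV19 was 51.9% identical to TRAV12-3, with a longest shared run of 9 bases. Its nearest relative among 28 other annotated alpha segments, which RefSeq describes as alpha variable 14/delta variable 4-like, was 68.3% identical, with a longest shared run of 19 bases. TRAV12-3 had a closer relative, since it was 85.1% identical to TRAV12-2 and shared a run of 65 bases with the segment described as 12-1-like. TRBV11-1 shared at most 38 bases in a row with another beta segment, the one described as 11-2-like. Counts of TRAV12-3 and TRBV11-1 may therefore be less certain than counts of TRAV19, because reads inside such a run could belong to either segment. How many reads did so was not tested. The joined CDR3 sequences were not analysed here.

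TRAV19 was found in 772 of the 7601 cells, and its share was higher in the classes with more GZMB. It was detected in 5.05% of the 4254 cells without a GZMB UMI (4.42% to 5.76%), in 7.58% of cells with 1 or 2, in 14.7% with 3 to 5, in 17.9% with 6 to 11, in 22.2% with 12 to 17, and in 17.9% with 18 or more. The intervals of the last 3 classes overlapped, so no order was read among them. Median depth was 4018.5 UMIs in cells without GZMB, 3331 in those with 1 or 2 and 3130 in those with 3 to 5. In the last 3 classes it was 3172.5, 3277.5 and 3675.5, and the part of depth in the shares was not tested. Background was measured in 86 cells, called B gene cells, in which B cell genes summed to 3 or more UMIs while CD3D, CD3E and CD3G were at 0. TRAV19 was found in 0 of these 86 cells, which allows a share of up to 3.49%, at a median depth of 4137.5 UMIs. GZMB was present in 7 of them (8.14%) with 263 UMIs in all (663 CPM), so these cells were not taken as a background for GZMB.

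Of the cells with TRAV19 and at least 3 GZMB UMIs, 517 in all, 22 were left out for a TRAV12-2 UMI (19 cells) or a TRBV7-3 UMI (4 cells, 1 of them with both). Among the 495 that remained, 182 held 1 TRAV19 UMI, 143 held 2, 82 held 3 and 88 held 4 or more, with a highest count of 12. Their GZMB counts ran from 3 to 63 with a median of 12, against 3 to 147 with a median of 11 in the other GZMB+ cells. Just inside the threshold, 18 of 174 cells with 3 GZMB UMIs had TRAV19, and just outside it 16 of 189 cells with 2 did. These values chose the cells and are given as a description.

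The label of cytotoxic T cells was checked against genes that the rule did not use. At least 1 UMI of CD3D, CD3E, CD3G, CD247 or TRAC, parts of the T cell receptor complex, was found in all 495 cells, with CD3E in 99.2%. NKG7, a granule membrane protein, was found in 98.8% of them, GNLY, the pore-forming granulysin, in 64.0%, CX3CR1, a chemokine receptor of effector cells, in 48.3%, and PRF1, perforin, in 32.1%. In the 215 TRAV19+ cells without a GZMB UMI these shares were 38.6%, 33.5%, 0.465% and 6.05%. Thinned to 2000 UMIs, which leaves out shallower cells (14 of 495 and 15 of 215), NKG7 was in 91.7% against 26.5%, GNLY in 50.7% against 31.0%, CX3CR1 in 31.2% against 0.500% and PRF1 in 19.96% against 4%. GNLY was not lower in 53 of those 215 cells, whose shares are given below. The B gene cells held NKG7 in 4.65% and GNLY in 2.33%. CCR7, LEF1 and TCF7, genes of naive and central memory cells, were each found in fewer than 10% of the TRAV19+ GZMB+ cells, at 7.27%, 4.85% and 8.48%. ADGRG1, an adhesion receptor of cytotoxic lymphocytes, was found in 18.99% of them, 19.2% of the other GZMB+ cells and 0.465% of the TRAV19+ cells without GZMB. T cell markers and the granule genes NKG7 and GNLY were therefore found in most cells, and the granule gene PRF1, CX3CR1 and ADGRG1 in a minority.

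Markers of monocytes and platelets were few. Monocyte markers reached 3.97 counts per 1000000 gene UMIs (CPM) summed over 7 genes, with FCN1, VCAN, S100A8 and S100A9 at 0 UMIs. Platelet markers were at 0 for all 3 genes. Of the NK cell list, NCAM1 and FCGR3 were at 0, and NCR1 had 4 UMIs (0.808% of cells against 0.261% of the other GZMB+ cells). KLRF1, a receptor that NK cells also carry, gave 153 of the 155 CPM of the NK cell list and was present in 42.8% of the cells. B cell markers summed to 68.0 CPM over 7 genes, all of them detected, with CD79A the most abundant, against 62.4 CPM in the other GZMB+ cells. HBA, a red cell hemoglobin, was at 109 against 106 CPM and was found in 27.9% and 26.8% of cells, and in 14.0% of the B gene cells. In the TRAV19+ cells without GZMB it was at 6.35 CPM (6 UMIs against 219). The part of this red cell transcript in the comparisons with those cells was not tested. Median depth was 3318 UMIs per cell, with a range of 732 to 22509, against 3289 in the other GZMB+ cells, and the median mitochondrial share was 4.08% against 3.99%.

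The TRAV19+ GZMB+ cells were next compared with the other GZMB+ cells across the transcriptome. A level is the summed UMIs of a group scaled to 1000000 gene UMIs, and a difference is the log2 ratio of CPM + 10. Among 4883 genes with a pooled level of at least 20 CPM, 9 were higher by at least 1.5-fold (0.184% of those compared) and 36 were lower by at least 1.5-fold (0.737%), leaving out the 4 genes of the rule. The count of higher genes moved with the processing, to 16 without the deepest 5% of cells and 21 with cells thinned to 2000 UMIs. The higher genes held 3 named segments, 1 feature without a symbol and 5 other genes, and the lower genes held 12, 14 and 10. The median log2 ratio over all genes compared was −0.0001.

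Receptor segments and a feature without a symbol held the largest ratios among the higher genes. The feature ENSMMUG00000056515 reached 2131 CPM in the TRAV19+ GZMB+ cells (4292 UMIs) and 276 CPM in the other GZMB+ cells (2416 UMIs), a log2 ratio of 2.90, with an interval of 2.87 to 3.02 for the log2 ratio without the added 10 CPM. It has no symbol in the deposited gene list or in the gene table used, and was not identified here. In the deposited list it stands 2 rows after TRBV6-1 and 1 row before TRBV7-2. It was found in 85.9% of the TRAV19+ GZMB+ cells (82.5% to 88.8%) and in 15.1% of the other GZMB+ cells (13.6% to 16.6%). After thinning, which left out 116 of the 2302 other cells, the shares were 82.5% and 13.3%. It was found in 0 of the 86 B gene cells, which allows up to 3.49%.

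Of the TRAV19+ cells without GZMB, 30.7% held the feature (24.6% to 37.3%). In cells chosen in the same way for TRAV12-2 (327 cells) or TRBV7-3 (260 cells), with at least 3 GZMB UMIs and neither of the other segments, it was found in 4.28% and 4.23%. After thinning, these 3 shares were 27.0%, 3.18% and 2.44%. The TRAV19+ GZMB+ cells thus stood apart from each of these groups by more than counting error.

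**Figure D1:**
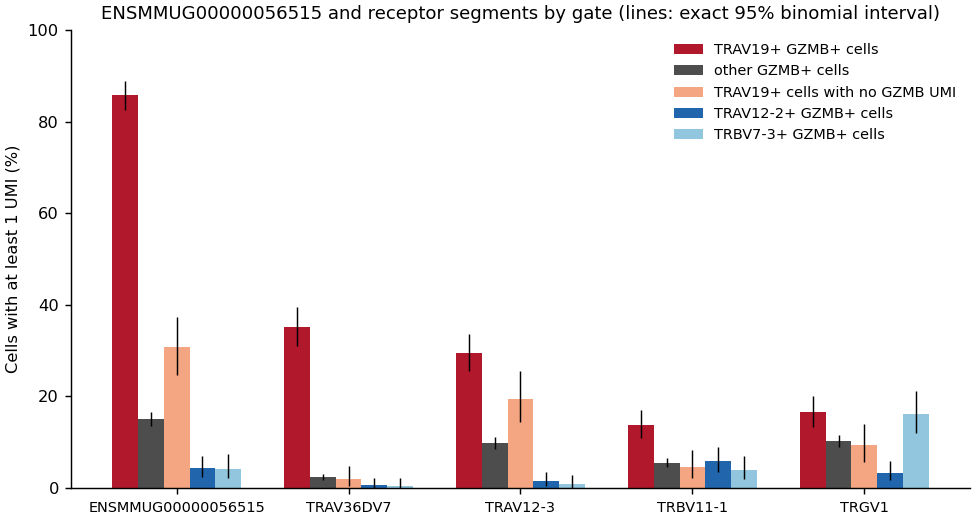
Share of cells with at least 1 UMI of ENSMMUG00000056515 and 4 receptor segments (vertical axis, percent of cells) in the TRAV19+ GZMB+ cells (495), the other GZMB+ cells (2302), TRAV19+ cells without GZMB (215), and GZMB+ cells chosen for TRAV12-2 (327) or TRBV7-3 (260). Bars are shares and lines exact 95% binomial intervals. ENSMMUG00000056515 reached 85.9% in the first group and at most 30.7% in the others.

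TRBV11-1, a beta segment, was found in more TRAV19+ GZMB+ cells than any other named TRBV. Its level was 290.0 CPM (584 UMIs) against 21.1 CPM (184 UMIs) in the other GZMB+ cells, a log2 ratio of 3.27. It was found in 13.7% of the cells (10.8% to 17.1%) against 5.52%. Thinned to 2000 UMIs, the shares were 10.6% and 3.06%. The B gene cells held it in 1.16%.

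High counts of the feature and of TRBV11-1 were found in different cells, although 28 of the 495 cells held at least 1 UMI of each. At least 3 UMIs of ENSMMUG00000056515 were held by 407 of the 495 cells, or 82.2% (78.6% to 85.5%), with a median of 10 and a highest count of 53. Another 39 cells had 4 to 38 UMIs of TRBV11-1, with a median of 12, and none of ENSMMUG00000056515. Among the 407 cells, 381 had no TRBV11-1 UMI, 24 had 1 and 2 had 2. No cell with 4 or more TRBV11-1 UMIs thus held the feature. The last 49 cells fell in neither group. Of those 49, 21 held a UMI of a named TRBV segment, most often TRBV19 (8 cells), and 30 held no UMI of either ENSMMUG00000056515 or TRBV11-1. These limits of 3 and 2 UMIs were chosen after the values had been seen.

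**Figure D2:**
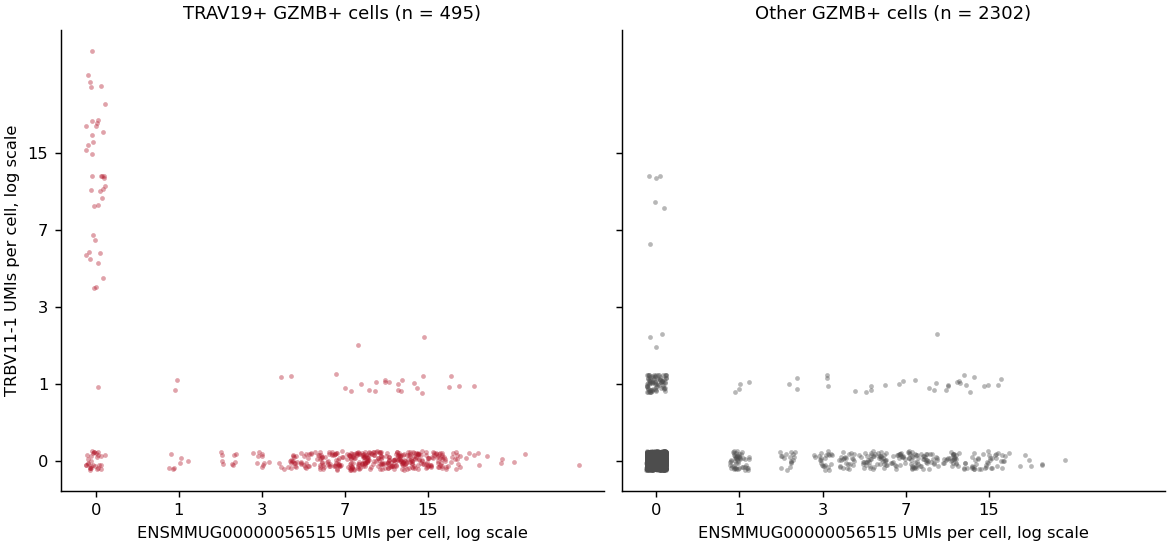
UMIs per cell of ENSMMUG00000056515 (horizontal axis, log scale of UMIs + 1) and TRBV11-1 (vertical axis, same scale) in the 495 TRAV19+ GZMB+ cells and the 2302 other GZMB+ cells. Each point is a cell, moved slightly at random so that equal counts can be seen. In the first panel 407 cells lie along the horizontal axis at 3 or more UMIs and 39 along the vertical axis at 4 or more.

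The same cells were also counted from the other side, which restates the overlap above and adds no support to it. Of the 51 GZMB+ cells with at least 2 TRBV11-1 UMIs, 41 held TRAV19 (80.4%, 66.9% to 90.2%). Of the 685 GZMB+ cells with at least 3 UMIs of ENSMMUG00000056515, 413 held TRAV19 (60.3%, 56.5% to 64.0%). Of all 2819 GZMB+ cells, which include these, 18.3% held TRAV19. A cell without a TRAV19 UMI may still carry the segment, since 182 of the 495 chosen cells were found by a single UMI and thinning to 2000 UMIs left TRAV19 in 78.4% of the 481 deep enough.

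Transcripts of other alpha segments were found in the same cells. Of the 495 cells, 153 held no other named TRAV segment, 309 held 1 and 33 held more, so 69.1% held at least 1 UMI of another (64.8% to 73.1%). In the TRAV12-2+ GZMB+ cells, 34.3% held a named TRAV segment besides TRAV12-2 (29.1% to 39.7%), and 1.16% of the B gene cells held a named TRAV segment other than TRAV19. No doublet caller was run, and a single UMI was enough to count. TRAV36DV7, a segment that can serve the alpha or the delta chain, was found in 35.2% of the TRAV19+ GZMB+ cells (30.9% to 39.5%) and 2.35% of the other GZMB+ cells, at 151 and 9.15 CPM. TRAV12-3 was found in 29.5% (25.5% to 33.7%) against 9.77%, at 242 and 83.9 CPM. Thinned to 2000 UMIs, the shares were 23.1% and 1.37% for TRAV36DV7 and 25.4% and 8.05% for TRAV12-3. ENSMMUG00000056515 was at 3 or more UMIs in 169 of the 174 cells with TRAV36DV7 (97.1%, 93.4% to 99.1%) and in 133 of the 146 cells with TRAV12-3 (91.1%, 85.3% to 95.2%), against 82.2% of all 495, which include them. They hardly met in the same cell. Of the 407 cells, 167 held TRAV36DV7 alone, 131 held TRAV12-3 alone, 2 held both and 107 held neither.

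The TRAV19+ cells without GZMB differed in this split. Of their 53 cells with at least 3 UMIs of ENSMMUG00000056515, 67.9% held TRAV12-3 (53.7% to 80.1%) and 3.77% held TRAV36DV7 (0.460% to 12.98%), against 32.7% and 41.5% in the 407 GZMB+ cells. GNLY was found in 77.4% of the 53 cells and 65.6% of the 407, or 70.8% and 53.3% after thinning. Its level was 1036 against 470 CPM. NKG7, PRF1 and CX3CR1 were lower in the 53 cells, found in 49.1%, 9.43% and 1.89% against 98.5%, 29.7% and 49.1%.

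A further segment, TRGV1 of the gamma chain, was found in 16.6% of the TRAV19+ GZMB+ cells and 10.2% of the other GZMB+ cells, at 71.0 and 44.0 CPM, a log2 ratio of 0.58 that fell just short of 1.5-fold. After thinning, the shares were 11.9% and 6.68%. The difference rested on the 39 cells with TRBV11-1, which held 74 of the 143 TRGV1 UMIs, and without them, an alternative chosen after seeing the data, the log2 ratio was −0.18. The GZMB+ cells chosen for TRBV7-3 held TRGV1 in a similar share, 16.2% (11.9% to 21.2%), and those chosen for TRAV12-2 in 3.36% (1.69% to 5.94%). Alpha-beta T cells often keep transcripts of a rearranged gamma chain. TRAC, the alpha constant region, was found in 70.1% and 66.2%, or 49.1% and 49.6% after thinning.

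Most of the lower named segments were beta segments. TRBV29-1 was at 2.98 against 57.2 CPM, TRBV9 at 14.4 against 99.5, TRAV21 at 8.94 against 62.7, TRBV23-1 at 9.93 against 54.3 and TRBV27 at 54.6 against 193 CPM, with log2 ratios of −2.37, −2.17, −1.94, −1.69 and −1.65. TRBV10-1, TRBV24-1, TRBV7-2 and TRAV9-1 had log2 ratios of −1.43, −1.40, −1.39 and −1.22. The UMIs of all these segments in the TRAV19+ GZMB+ cells lay in few cells. The top 5 cells held from 71.8% (TRBV27) to 100% (TRBV29-1, TRAV21, TRBV23-1 and TRBV24-1). Of the features without a symbol, ENSMMUG00000059649 was lowest at 31.8 against 550 CPM, followed by ENSMMUG00000060238 at 18.4 against 201 CPM. The rule bears on these values, since it removed TRAV12-2 and TRBV7-3 cells from one group only. With those cells also left out of the comparison, ENSMMUG00000059649 had a log2 ratio of −2.29 instead of −3.75.

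Among named genes outside the receptor, ITM2A had the largest ratio. ITM2A, a membrane protein of T cells induced on activation (Mmul_10 chrX:76225031-76231977), was at 289 CPM (266 to 313) in the TRAV19+ GZMB+ cells and 157 CPM (149 to 166) in the other GZMB+ cells, a log2 ratio of 0.84. It was found in 59.4% and 37.4% of cells, or 43.0% and 24.3% after thinning. COA1, an assembly factor of the mitochondrial respiratory chain, was at 128 against 71.3 CPM. ALOX5AP, a protein needed to make leukotrienes, was at 161 against 96.3 CPM. CSF1, the growth factor of macrophages, was at 80.4 against 49.3 CPM, and LTN1, a ubiquitin ligase of ribosome quality control, at 34.3 against 18.9 CPM. Over the alternatives tried, ITM2A stayed past 1.5-fold, while the lowest log2 ratios of the others fell short of it, at 0.55 for COA1, 0.53 for ALOX5AP, 0.39 for CSF1 and 0.29 for LTN1. USH1C, NCF4 and GPR141 lay just below 1.5-fold, with log2 ratios of 0.56, 0.55 and 0.54.

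KLRD1 was the lowest named gene outside the receptor whose counts were spread over many cells. KLRD1 encodes CD94, which pairs with NKG2 proteins in a receptor for HLA-E and its relatives (Mmul_10 chr11:9390401-9397427). It was at 77.0 CPM (65.3 to 90.1, 155 UMIs) against 215 CPM (205 to 225, 1876 UMIs), a log2 ratio of −1.37. It was found in 16.4% of cells against 40.2%, and in 10.2% against 29.7% after thinning. GZMK, granzyme K, was at 133 against 300.2 CPM (log2 ratio −1.12) and was found in 16.8% against 26.6% of cells, or 12.1% against 21.4% after thinning. GZMK lies at chr6:53329124-53338866 of Mmul_10. CCL5, a chemokine released by cytotoxic cells, was at 399.7 against 714 CPM (−0.82), CTSW, a protease of cytotoxic cells, at 92.4 against 170.2 CPM (−0.82), and CD96, an adhesion receptor that binds CD155, at 28.3 against 56.1 CPM (−0.79), which fell short of 1.5-fold with a pseudocount of 50 CPM (−0.44). LILRA3, a soluble receptor of myeloid cells, and JCHAIN, the joining chain of secreted antibodies, had lower ratios, −1.51 and −1.48, but 77.7% and 78.1% of their UMIs in the other GZMB+ cells lay in 5 cells.

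**Figure D3:**
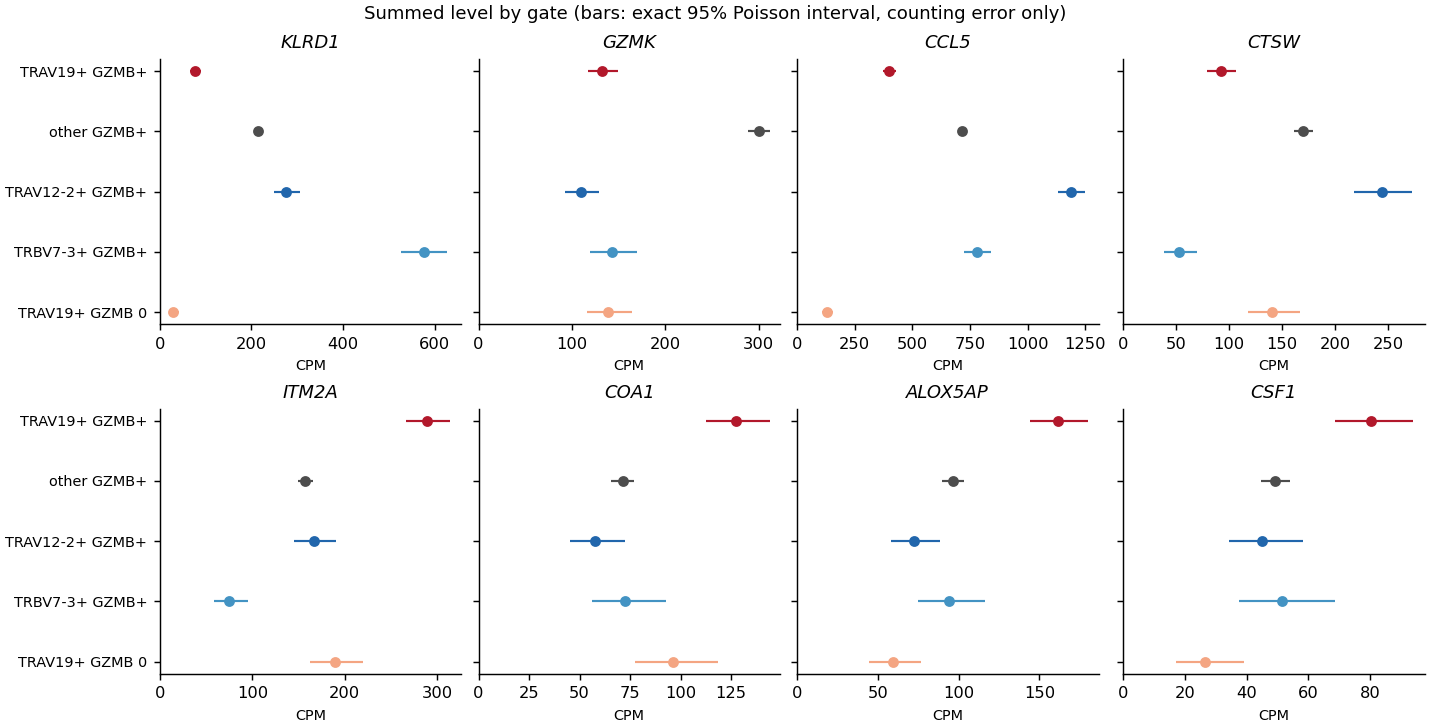
Summed level in CPM (horizontal axes) of 8 genes in the TRAV19+ GZMB+ cells, the other GZMB+ cells, the GZMB+ cells chosen for TRAV12-2 or TRBV7-3, and the TRAV19+ cells without GZMB. Points are group levels and lines are exact 95% Poisson intervals. KLRD1 was at 77.0 CPM in the TRAV19+ GZMB+ cells and at 215, 276 and 576 CPM in the 3 other GZMB+ groups. It was below 77.0 CPM in the TRAV19+ cells without GZMB.

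The groups chosen in the same way for other segments were set beside these values. KLRD1 was at 276 CPM (248 to 307) in the TRAV12-2+ GZMB+ cells and at 576 CPM (527 to 628) in the TRBV7-3+ GZMB+ cells, both above the 77.0 CPM of the TRAV19+ GZMB+ cells. CCL5 was at 1189 and 782 CPM, also above 399.7. ITM2A was at 167 and 74.96 CPM, both below 289, and COA1 and ALOX5AP were below as well, at 57.6 and 72.7 CPM and at 72.4 and 94.0 CPM. GZMK did not follow this order, as it was at 109.7 CPM (92.4 to 129) and 143 CPM (119 to 170.3), with intervals that overlapped the 117 to 149 of the TRAV19+ GZMB+ cells. CTSW split them, at 244 CPM in the TRAV12-2+ and 52.6 CPM in the TRBV7-3+ cells. Leaving TRAV12-2 and TRBV7-3 cells out of the comparison group moved the log2 ratio of KLRD1 to −0.90, of CCL5 to −0.59 and of GZMK to −1.38, and all 3 stayed past 1.5-fold. KLRD1 was lower still in the TRAV19+ cells without GZMB. The 53 of these with at least 3 UMIs of ENSMMUG00000056515 had 13.9 CPM (3 UMIs), and the other 162 had 32.9 CPM (24 UMIs). In the same order, ITM2A was at 236 and 176 CPM, COA1 at 83.2 and 100.2 CPM, and ALOX5AP at 189.6 (136 to 257) and 20.6 CPM.

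The counts of the gene lists are read against the 0.184% of all genes compared that were higher and the 0.737% that were lower, and with lists this short a count of 0 or 1 says little. Of 13 genes of the cytotoxic granule compared, 0 were higher and 2 lower (GZMK and CTSW), and the median log2 ratio was −0.19. GNLY was at 473 against 638 CPM (−0.43), PRF1 at 125 against 163 CPM (−0.36), CST7, an inhibitor of granule proteases, at 937 against 1070.0 CPM (−0.19), NKG7 at 1740.3 against 1904 CPM (−0.13), and SRGN, the proteoglycan that packs the granules, at 2238 against 2217 CPM (0.01). Of 9 NK-type receptors and adaptors, 1 was lower, KLRD1, and the median was −0.17. KLRB1, the C-type lectin CD161, was at 205 against 236 CPM, HCST, the signalling adaptor DAP10, at 1531 against 1602 CPM, and NKG2D, an activating receptor, at 131 against 112 CPM. These 3 did not pass 1.5-fold.

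Of 10 genes of naive and memory cells 0 passed 1.5-fold. Their median was 0.24, but 0.13 with cells thinned to 2000 UMIs and −0.06 with GZMB at 1 or more UMIs in the rule. IL7R, the receptor that keeps resting T cells alive, was at 878 against 684 CPM (0.35), and KLF2, which holds T cells in circulation, at 411 against 362 CPM (0.18). Of 21 homing and adhesion genes 0 passed, with a median of 0.03. ITGA4, the alpha4 integrin chain, was at 556 against 543 CPM (0.03), ITGB2, the beta2 chain, at 505 against 552 CPM (−0.13), and CX3CR1 at 202 against 161 CPM (0.31). Of 8 checkpoint and costimulatory receptors 1 was lower, CD96. PDCD1, an inhibitory receptor of activated T cells, was not called at 183 against 269 CPM (−0.53). Of 7 cytokines and chemokines 1 was higher, CSF1, and 1 lower, CCL5, with LTB, lymphotoxin beta, at 334 against 285 CPM (0.22).

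No gene passed 1.5-fold among 14 effector transcription factors (ID2, an inhibitor of E proteins, at 642 against 641 CPM), 18 genes of T cell receptor signalling, 9 cytokine receptors, 20 immediate early genes, 10 interferon-stimulated genes, 23 genes of S100 proteins, annexins and the cytoskeleton, 12 of antigen presentation, 11 of survival and 5 of the cell cycle. Their medians lay between −0.05 and 0.18, the highest being that of the cell cycle list, where STMN1, a tubulin-binding protein of dividing cells, was at 194 against 152 CPM (0.33). Only 5 of 15 cell cycle genes reached the pooled level needed to be compared. Below it, RRM2 was at 22.3 against 9.61 CPM (45 and 84 UMIs, log2 ratio 0.72). FCER1G, of the NK-type receptors and adaptors, was also below it, at 1.49 against 8.92 CPM (3 and 78 UMIs, −0.72). Of the coreceptors and lineage factors 0 of 8 passed, with CD8A at 231 against 193 CPM (0.25) and CD4 at 188 against 202 CPM (−0.10). TRAV10, used by invariant NKT cells in other species, was lower at 11.9 against 30.7 CPM, as were other receptor segments, but 79.2% of its UMIs in the TRAV19+ GZMB+ cells lay in 5 cells and it fell short of 1.5-fold with a pseudocount of 50 CPM (−0.38). ZBTB16, the transcription factor PLZF of innate-like T cells, was at 10.4 against 5.38 CPM (21 and 47 UMIs), below the level needed to be compared. FOXP3 and IL2RA, markers of regulatory T cells, had 5 and 9 UMIs in the TRAV19+ GZMB+ cells.

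The tags measured the proteins that had been used to isolate the cells. Median CD4 tag counts were 300 in the TRAV19+ GZMB+ cells (quartiles 240 and 404), 317 in the other GZMB+ cells and 90 in the B gene cells. Median CD8 tag counts were 404 (quartiles 258 and 611), 339 and 139.5. Levels were set at the 90th percentile of B gene cells, 191 CD4 and 330.5 CD8 tag counts, and 58.6% of the TRAV19+ GZMB+ cells (54.1% to 63.0%) were above both levels, as were 47.4% of the other GZMB+ cells (45.3% to 49.5%). With the levels at the 99th percentile, 6.46% of the TRAV19+ GZMB+ cells were above both. The difference between the groups is given at the 90th percentile only. The groups differed more in CD8, with 62.8% against 51.5% above its level, while 89.9% and 91.4% were above the CD4 level. The GZMB+ cells chosen for TRAV12-2 had 65.1% above both levels (59.7% to 70.3%) and those chosen for TRBV7-3 16.2% (11.9% to 21.2%). CD8B, the CD8 beta chain of conventional CD8 T cells, was found in 4.04% of the TRAV19+ GZMB+ cells and CD8A in 49.1%.

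**Figure D4:**
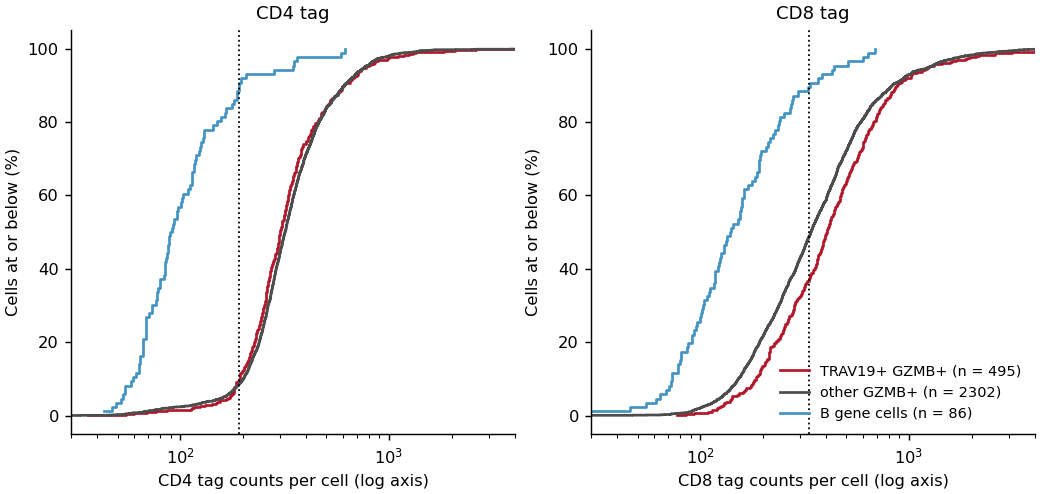
Percent of cells at or below a tag count (vertical axis) against the CD4 or CD8 tag counts of a cell (horizontal axis, log scale) in the 495 TRAV19+ GZMB+ cells, the 2302 other GZMB+ cells and the 86 B gene cells. Dotted lines mark the levels of 191 and 330.5 counts. The CD8 curve of the TRAV19+ GZMB+ cells lies to the right of that of the other GZMB+ cells, with medians of 404 and 339.

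The TRAV19+ GZMB+ cells were not uniform. The 407 cells with ENSMMUG00000056515 and the 39 with TRBV11-1 differed in the levels of several genes, chosen for their ratios after the values were seen. KLRB1 was at 854 CPM (726 to 999) in the TRBV11-1 cells and at 123 CPM (106 to 141) in the ENSMMUG00000056515 cells, and was found in 84.6% and 28.7% of them, or 71.8% and 18.9% after thinning. KLRD1 was at 239 CPM (174 to 321) against 45.2 CPM (35.4 to 56.9), and GZMK at 354 CPM (273 to 451) against 60.7 CPM (49.3 to 74.0). KLRD1 was found in 38.5% against 11.5% of cells, or 23.1% and 7.07% after thinning. GZMK was found in 53.8% against 11.1%, or 46.2% and 6.57%. In the TRBV11-1 cells, 5 cells held 52.3% of the 44 KLRD1 UMIs and 40% of the 65 GZMK UMIs. TRGV1 was at 403 CPM in the TRBV11-1 cells, where 74.4% of cells held it, against 39.0 CPM and 11.8% (59.0% and 8.08% after thinning). CD8A was at 392 against 199 CPM, and the median CD8 tag count was 620 against 389.

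In the other direction, ITM2A was at 70.7 CPM (37.7 to 121) in the TRBV11-1 cells against 329.6 CPM (302 to 359) in the ENSMMUG00000056515 cells. It was found in 20.5% against 64.9% of cells, and the TRBV11-1 cells held 13 UMIs of it in 8 cells. GPR141, an orphan receptor, was at 1 UMI against 109, or 5.44 against 67.5 CPM. The 39 cells were deeper, with a median of 4263 against 3275 UMIs, and their B cell markers summed to 109 CPM (20 UMIs, MS4A1 the most abundant) against 55.8 CPM. Markers of NKT, MAIT and gamma delta T cells, of which ZBTB16 and TRAV10 were measured, summed to 70.7 CPM (13 UMIs, all of ZBTB16, in 23.1% of cells) against 19.8 CPM (32 UMIs, in 2.70%), with TRAV10 at 0 in the 39 cells. The part of depth and of these markers in the difference was not tested.

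Within the 407 cells, levels also differed by alpha segment, for genes chosen after the values were seen. The largest ratios outside the receptor were of low counts. CGA, the alpha subunit of glycoprotein hormones, had 31 UMIs in the 167 cells with TRAV36DV7, all in 1 cell, and 0 in the 131 with TRAV12-3. NEURL1, a ubiquitin ligase, had 32 UMIs in 30 cells against 2 UMIs in 2 cells, a log2 ratio of counts per depth of 3.57 (1.60 to 6.68). PRF1 was at 183 CPM (147 to 224) in the 131 cells with TRAV12-3 and at 87.8 CPM (66.8 to 113) in the 167 with TRAV36DV7. GNLY was at 672 against 362 CPM, with 84.7% against 55.7% of cells positive, or 72.4% against 40.9% after thinning. KLRB1 was at 177 CPM (142 to 217) against 83.3 CPM (62.9 to 108), and COA1 was lower in the TRAV12-3 cells, at 76.2 CPM (53.9 to 105) against 162 CPM (133 to 196). ITM2A, at 321 and 339 CPM, and KLRD1, at 48.1 and 55.1 CPM, had overlapping intervals. Median depth was 3188 UMIs in the TRAV12-3 cells and 3353 in the TRAV36DV7 cells.

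**Figure D5:**
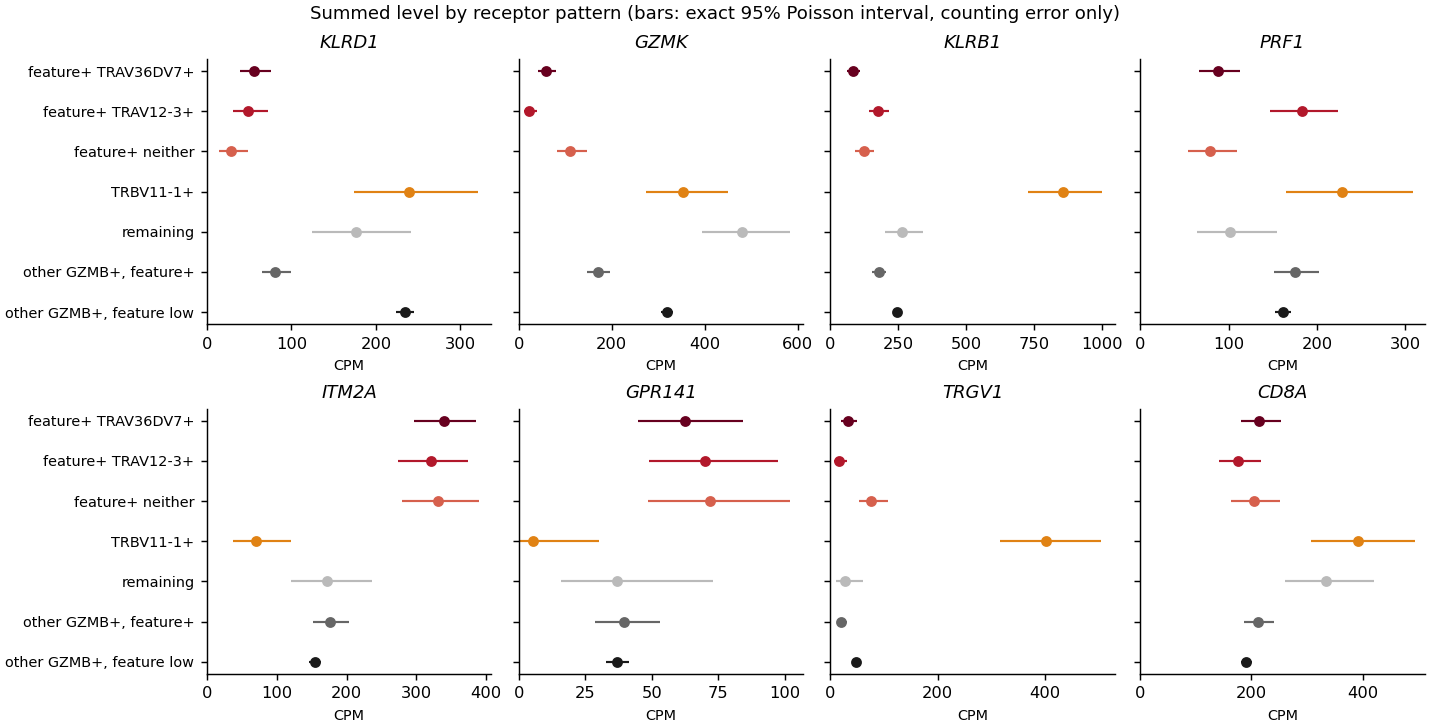
Summed level in CPM (horizontal axes) of 8 genes in TRAV19+ GZMB+ cells divided by receptor pattern and in the other GZMB+ cells with at least 3 or with fewer UMIs of ENSMMUG00000056515 (written feature). Points are group levels and lines are exact 95% Poisson intervals. The 39 TRBV11-1 cells stand at 854 CPM of KLRB1 and 403 CPM of TRGV1, and at 70.7 CPM of ITM2A.

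The other GZMB+ cells with at least 3 UMIs of ENSMMUG00000056515, 272 cells without a TRAV19 UMI, lay between in KLRD1 and GZMK. Their KLRD1 level was 81.0 CPM (65.1 to 99.5), above the 45.2 CPM of the 407 TRAV19+ cells and below the 234 CPM (223 to 245) of the 2030 other GZMB+ cells with fewer UMIs of it. GZMK followed the same order at 60.7, 171 and 319 CPM. For ITM2A the levels were 329.6, 176 and 154 CPM, and the intervals of the last 2 overlapped (153 to 203 and 146 to 163). CCL5 was at 359 CPM in the TRAV19+ cells and at 695 and 717 CPM in the other groups. TRAV36DV7 was found in 16.5% of the 272 cells and in 0.443% of the 2030.

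The 49 cells with neither pattern had higher levels of CCL5, GZMK and CD8B than the 407, but few cells carried much of the first 2. CCL5 was at 870.3 CPM against 359, with 46.3% and 12.1% of its UMIs in 5 cells. GZMK was at 481 CPM (393 to 583) against 60.7, with 74.0% and 49.0% of its UMIs in 5 cells and up to 32 in 1 cell, and was found in 34.7% against 11.1% of cells, or 30.4% and 6.57% after thinning. CD8B was found in 20.4% of cells against 2.46%, or 15.2% and 1.01% after thinning. KLRD1 was at 176 CPM (124 to 241) and ITM2A at 171 CPM (121 to 236). In these 49 cells, 49.0% were above both tag levels (34.4% to 63.7%).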

How the data were processed

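The authors processed 5′ reads with Cell Ranger 3.1.0 (STAR 2.5.1b, build Mmul_10) and deposited raw counts, that is UMIs per gene and antibody tag counts per barcode; their notes also name Seurat 3.1.3. Here a cell needed 200 to 4000 genes, with no more than 20% of its UMIs mitochondrial. This left out 33 barcodes with too few genes, 14 with too many and 305 over the mitochondrial limit, some for more than 1 reason. No doublet caller was run. UMIs were summed per group, scaled to CPM and compared as log2 ratios of CPM + 10 with Python 3.11.15, numpy 2.4.6, scipy 1.17.1 and pandas 2.3.3. Genes needed 20 CPM over both groups. Intervals are exact (95%) and treat UMIs as independent molecules. The steps were tested on simulated data. Symbols came from the deposited list (23817 features), with 720 added from the gene table.

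The cells, the limits and the 23 gene lists (311 of 348 genes found) were chosen with earlier results of these data known. Named genes are the 12 highest and 12 lowest ratios among genes reaching 20 UMIs in whichever group was higher, up to 2 features without a symbol each way, segments in at least 5% of the cells, list members past 1.5-fold and the most abundant members of each list. PRF1, the markers, and the genes named within receptor patterns were chosen beside this rule, the last after their values were seen. The sequence of 1 further segment is not reported here.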

Additional observations from a re-analysis of the deposited data

Results flagged for a closer look

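Barcodes outside the cell filter also met the UMI rule. Of these 322 barcodes, 9 held TRAV19 and at least 3 GZMB UMIs without TRAV12-2 or TRBV7-3, or 2.80% (exact 95% interval 1.29% to 5.24%). They are given because the count is above the 3 barcodes (0.932%) taken as the limit for a count of 0, and no level in control samples was measured. They were left out of every comparison.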

How the results depend on the processing

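The rule found 313 cells with at least 2 TRAV19 UMIs in place of 1. Against 9 genes higher, there were 16 without the deepest 5% of cells, 21 with cells thinned to 2000 UMIs, 17 and 5 with a pseudocount of 1 and 50 CPM, 18 with a filter at 5 CPM, 21 with no filter, 15 scaled without mitochondrial and ribosomal protein genes, 4 at 2-fold, and 5 without receptor segments and features lacking a symbol. Against 36 genes lower, there were 68 and 17 with a filter at 5 and 50 CPM, 72 with no filter, and 10 without receptor segments and features lacking a symbol. TRBV11-1 was in 10.6% of thinned cells against 13.7%, and 6.46% of cells against 58.6% were above both tag levels when these were set at the 99th percentile. The share with ENSMMUG00000056515, 82.2% at 3 UMIs, was 85.9% at 1 and 76.0% at 5. Without the 39 TRBV11-1 cells, an alternative chosen after seeing the data, the log2 ratio of TRBV11-1 was −0.20, which follows from how those cells were chosen and is no test of it, and that of TRGV1, which had not passed 1.5-fold, −0.18 against 0.58. LILRA3 moved to −0.41 and JCHAIN to −0.62 without the deepest 5% of cells. Log2 ratios of named genes were held against the distance from the middle of their counting interval to its end. Of 528 under the alternatives, 479 moved by no more than this distance and 48 by more. The remaining 1, TRBV11-1, had passed 1.5-fold and changed sign, as did TRGV1 among the 48. COA1, ALOX5AP, CSF1, LTN1, CD96, TRAV10, TRAV9-1 and JCHAIN lost 1.5-fold with a pseudocount of 50 CPM, CSF1 and LTN1 with GZMB at 1 or more, CSF1 without the 39 cells, and LTN1 with a mitochondrial limit of 10% or with TRAV12-2 and TRBV7-3 cells kept. Of 394 medians of gene lists, 373 moved by less than 0.1 and 21 by more, among them that of naive and memory genes. No paired analysis was possible because each library has 1 sample. With 1 animal, variation between animals was not measured, and the depth limits genes of few UMIs.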
